A study of Mus musculus with 12 samples.

Results

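The genes described here are the nuclear genes of respiratory complex I: every protein-coding mouse gene whose symbol begins with Nduf. The count matrix of 27504 genes held 51 rows with such a symbol, and 46 of them were protein-coding; the other 5 were processed pseudogenes or, in the case of Ndufb1-ps, an RNA annotated as non-coding, and were set aside. By their known place in the enzyme, 7 of the 46 are core subunits, 9 are accessory subunits of the peripheral arm, 19 are accessory subunits of the membrane arm, 1 (Ndufab1) sits in both arms and 8 are assembly factors that leave the finished enzyme. The remaining pair, Ndufa4 and Ndufa4l2, carry the name without being complex I subunits. RNA was sequenced from hearts of wild type C57BL/6 mice at postnatal day 45, as 12 libraries in 6 groups of 2. Mice were either in a model of cardiac hypertrophy induced with AngII (angiotensin II, a peptide hormone that raises blood pressure and drives heart muscle growth) or sham-operated, and within each arm they were given vehicle or gastrodin, a glucoside from an orchid used in Chinese medicine, at 5 or 50 mg/kg per day through the stomach for 7 days. The labels number the libraries 1 to 12 (AngII vehicle 1 and 2, AngII 5 mg 3 and 4, AngII 50 mg 5 and 6, sham vehicle 7 and 8, sham 5 mg 9 and 10, sham 50 mg 11 and 12). Whether the libraries are of different animals is not in the labels. The p-values therefore rest on the spread among libraries, and that spread may be technical.

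Complex I oxidises NADH, passes the electrons through a chain of iron-sulfur clusters in its peripheral arm to ubiquinone, and pumps protons across the inner mitochondrial membrane through its membrane arm. The core subunits carry out the catalysis, the accessory subunits stabilise the structure, and assembly factors join the modules in a fixed order. The core subunits of the membrane arm are encoded in the mitochondrial genome, so the enzyme needs the output of both genomes, and heart muscle holds it at high levels.

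Counts per library lay between 63488815 and 78604709. Mitochondrial transcripts and nuclear copies of mitochondrial sequence took most of them, and the genes outside these classes and ribosomal RNA held 7.49 to 20.3% of the counts in AngII libraries and 6.34 to 10.4% in sham libraries. This share is called the non-mitochondrial share below. The 46 genes together had 68880 to 297718 reads per library, or 1.22 to 1.96% of the non-mitochondrial counts. Ribosomal RNA took 11.1% of the counts in sham 50 mg number 12 and at most 0.983% in any other library. All 10 heart muscle markers looked for (Myh6, Tnnt2 and others) had reads in every library, with a summed level of 5892 to 9663 CPM (counts scaled by library size and composition to a common total, edgeR's CPM) in AngII and 4099 to 7659 CPM in sham libraries, and 3 were higher and 1 lower in AngII. Other markers differed between the arms in edgeR's test: 4 of 6 endothelial (60.4 to 131 CPM summed in AngII against 43.0 to 66.4 in sham), 4 of 6 smooth muscle and pericyte (106 to 319 against 79.7 to 166) and 5 of 5 red cell markers (1028 to 3347 against 289.6 to 1741) were higher in AngII, and 4 of 6 fibroblast (56.6 to 89.8 against 63.7 to 229) and 2 of 5 macrophage markers (20.8 to 74.5 against 28.6 to 116) were lower. Of 4 lung markers the 1 tested was higher in AngII (1.196 to 8.81 against 0 to 1.89 CPM summed, with each of Sftpa1, Sftpc, Scgb1a1 and Sftpb at 0 in some library), and the 1 of 4 fat cell markers tested was not called (0.988 to 2.15 against 0.999 to 2.102 CPM summed). In this comparison, averaged over the doses, edgeR called 13.4% of all genes tested higher in AngII and 7.53% lower. The part of these markers in the results below was not tested. In bulk tissue, fewer cells of a type and less RNA per cell cannot be told apart.

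All 46 genes had reads enough to be tested. Per transcript length, in the authors' TPM (a transcript's abundance per length relative to that of all transcripts), high levels were found for Ndufa5, an accessory subunit of the peripheral arm, with 232 ± 164 TPM (SD, n = 12, range 119 to 638), the gene with the highest mean, and Ndufb7, a small membrane-arm subunit on the intermembrane space side, with 132 ± 131 TPM (37.2 to 440.0). The 3 lowest were assembly factors: Ndufaf6 with 1.42 ± 0.626, Ndufaf7 with 1.38 ± 0.253 and Ndufaf2 with 0.921 ± 0.380 TPM. The mean level of Ndufa5 was 252 times that of Ndufaf2. The median over the 8 assembly factors was 1.79 TPM, against 36.5 for the core subunits, 46.7 for the accessory subunits of the peripheral arm and 43.0 for those of the membrane arm. Ndufaf8, at 9.19 TPM, was the assembly factor with the highest level, and the lowest level of a peripheral-arm subunit was 9.52 and of a membrane-arm subunit 8.68 TPM. These TPM are shares of all transcripts, of which mitochondrial genes and their copies held 85.9 to 95.4%, so a level moves with that share.

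**Figure D1:**
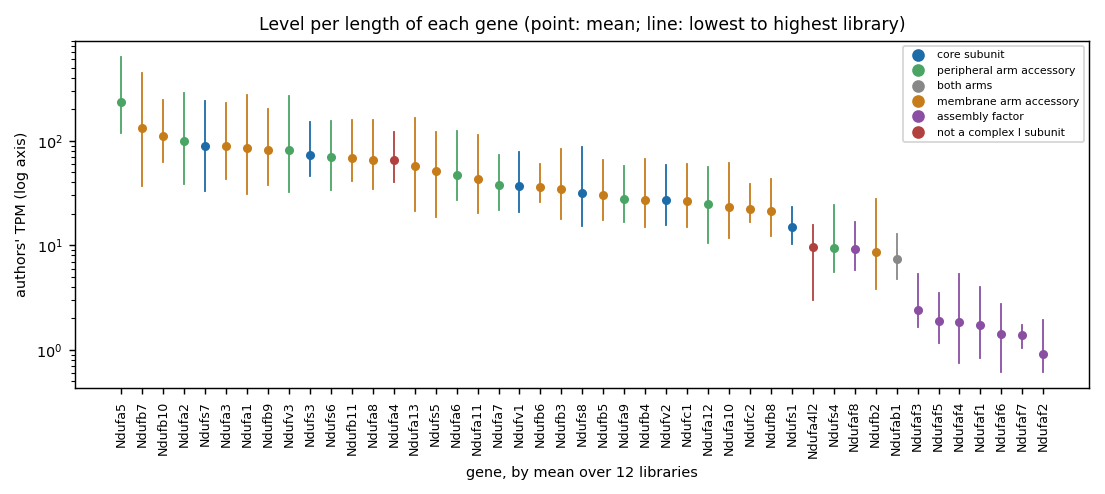
Level per transcript length of 45 of the genes, in the authors' TPM on a log axis, ordered by the mean over 12 libraries (point) with a line from the lowest to the highest library; colours give the role. Assembly factors (median 1.79 TPM) take the last 7 places, and Ndufa5 (232 TPM) leads.

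Averaged over the 3 doses, the comparison of AngII with sham hearts asks how the hypertrophy model moved these genes whatever gastrodin was given. Ndufb7 and Ndufa1, both accessory subunits of the membrane arm, rose, and none of the 46 fell in this test. Among all 16723 genes tested, 20.9% were called (13.4% higher and 7.53% lower) in edgeR's quasi-likelihood test with a Benjamini-Hochberg adjusted p under 0.05, so calls were fewer among the complex I genes than in the background. The 46 genes lay on both sides of 0, with 26 above and 20 below (54% of all genes lay above), and their median log2 fold change was 0.05, against 0.10 for all genes. Without AngII 50 mg number 6 the median was -0.02, with 20 above 0. On the authors' TPM, 45 of the 46 lay above 0 with a median of 0.62 on the log2(TPM + 1) scale, where the median of all genes was itself 0.22.

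Ndufb7 stood at 86.2 and 67.7 CPM in AngII vehicle, 138 and 53.8 in AngII 5 mg, and 67.1 and 135 in AngII 50 mg. It stood at 66.1 and 49.4 CPM in sham vehicle, 56.3 and 40.7 in sham 5 mg, and 33.9 and 31.04 in sham 50 mg. The arms overlapped only in that AngII 5 mg number 4 lay under the 2 highest sham libraries, numbers 7 and 9. The means were 91.2 ± 36.4 and 46.2 ± 13.6 CPM (SD, n = 6 each), a log2 fold change of 1.01 ± 0.25 (SE; edgeR adjusted p = 0.0160). In vehicle hearts alone the log2 fold change was 0.41 ± 0.44 (edgeR adjusted p = 0.656), and it was larger at 5 and 50 mg, as given below. Ndufb7 lies on chromosome 8 at 83566671 to 83571626 of GRCm38, on the plus strand.

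Ndufa1 is a small X-linked subunit with a membrane-spanning helix that is needed for assembly of the membrane arm. It stood at 41.6 and 25.9 CPM in AngII vehicle, 52.3 and 20.6 in AngII 5 mg, and 21.4 and 70.0 in AngII 50 mg. The sham libraries lay close together, at 19.8 and 20.6 CPM in vehicle, 21.7 and 19.4 at 5 mg, and 21.2 and 17.1 at 50 mg. AngII numbers 4 and 5 lay within the sham range, and the other 4 AngII libraries lay above it. The means were 38.6 ± 19.8 and 20.0 ± 1.63 CPM, a log2 fold change of 0.94 ± 0.29 (edgeR adjusted p = 0.0394). In vehicle hearts alone the log2 fold change of Ndufa1 was 0.74 ± 0.51 (edgeR adjusted p = 0.473). The gene lies on chromosome X at 37187588 to 37191163 of GRCm38, on the minus strand.

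Within each AngII group, the library with the larger non-mitochondrial share (numbers 1, 3 and 6, at 14.0, 20.3 and 18.7% against 9.47, 7.49 and 9.66% in numbers 2, 4 and 5) had the higher level of both genes. With this share as a covariate, Ndufb7 had a log2 fold change of 0.44 (edgeR adjusted p = 0.262) and Ndufa1 of 0.16 (edgeR adjusted p = 0.741), and no complex I gene was called, while the share of all genes called was 2.82%, down from 20.9%. This fit gave both arms a common slope, and the share itself averaged 13.2% in AngII and 8.09% in sham. In the sham pairs the library with the larger share had the lower Ndufb7 level (49.4 against 66.1, 40.7 against 56.3 and 31.04 against 33.9 CPM). The call of Ndufa1 held in 3 of the 12 fits that left out 1 library (AngII number 2, 4 or 5) and was lost in the other 9 (edgeR adjusted p = 0.0610 to 0.135), while that of Ndufb7 was lost without sham vehicle number 8 alone (edgeR adjusted p = 0.0504).

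**Figure D2:**
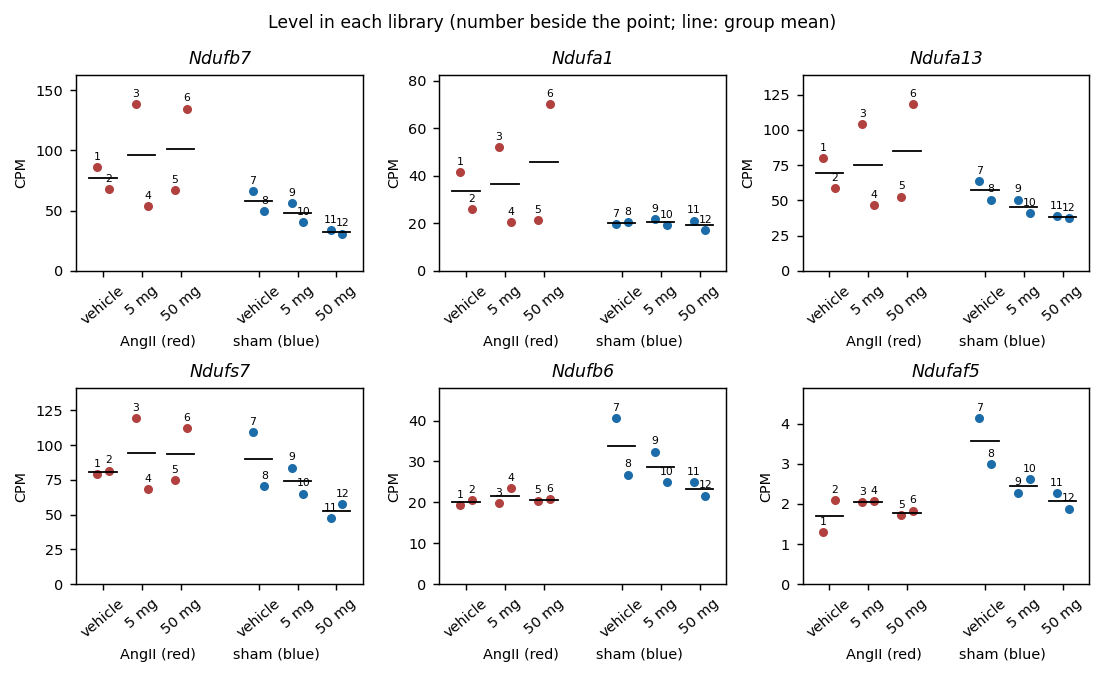
CPM of 6 complex I genes in each library (points, with the library number beside them; AngII in red, sham in blue) and the mean of each group of 2 (line); each panel has its own axis from 0. AngII numbers 1, 3 and 6 are the highest for Ndufb7, Ndufa1 and Ndufa13, while Ndufb6 varies little in AngII and is highest in sham vehicle number 7.

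None of the 7 core subunits passed, and 5 of them lay above 0. Ndufs7 and Ndufs8, which hold the last iron-sulfur clusters before ubiquinone, had the largest values of the 7. Ndufs7 ran from 68.6 through a median of 80.3 to 120 CPM in AngII (119.6 in number 3) and from 47.6 through 67.9 to 109.6 in sham (log2 fold change 0.33 ± 0.20, edgeR adjusted p = 0.250). Ndufs8 ran from 25.7 through 30.7 to 44.1 CPM in AngII and from 19.4 through 24.3 to 34.9 in sham (0.32 ± 0.19, edgeR adjusted p = 0.245). For both genes the ranges of the arms overlapped over most of their length. Ndufv1, which binds NADH and the flavin, and Ndufv2, its partner in the same module, had log2 fold changes of 0.16 ± 0.18 and 0.01 ± 0.18. Ndufs1, the largest subunit of the NADH module, had -0.12 ± 0.17, and Ndufs3, a subunit of the ubiquinone module, -0.19 ± 0.16. Of the sequence of Ndufs3, 49.3% of all stretches of 31 bases also occurs in other genes, mostly the predicted gene Gm12251, so its count is uncertain.

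The 9 accessory subunits of the peripheral arm had a median of 0.04, with 5 above 0 and none called. Ndufa2, a small subunit with a thioredoxin-like fold, ran from 40.1 through 51.9 to 99.5 CPM in AngII and from 32.7 through 36.7 to 49.7 in sham (log2 fold change 0.66 ± 0.24, edgeR adjusted p = 0.0691). Ndufv3, which binds the NADH module, ran from 27.9 through 33.6 to 67.2 CPM in AngII and from 23.9 through 25.7 to 39.4 in sham (0.56 ± 0.23, edgeR adjusted p = 0.1005). In both, the 2 highest AngII libraries were numbers 3 and 6, and the lowest AngII libraries lay inside the sham range. The other 7 lay between -0.16 (Ndufa7) and 0.32 (Ndufa5). Ndufab1, the mitochondrial acyl carrier protein, which also serves fatty acid synthesis, lay at 20.4 to 25.2 CPM in AngII and 21.6 to 44.3 in sham (-0.36 ± 0.17, edgeR adjusted p = 0.139). Of its stretches of 31 bases, 13.2% also occur in other genes, mostly Gm4459, so its count is uncertain.

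The 19 accessory subunits of the membrane arm held both genes called, and 14 of the 19 lay above 0 with a median of 0.10, that of all genes. Ndufa13, also known as GRIM-19, followed the called pair, with 46.6, 69.2 and 118 CPM as the lowest, median and highest AngII values and 37.3, 45.6 and 63.7 in sham (log2 fold change 0.72 ± 0.25, edgeR adjusted p = 0.0532). Ndufb6 lay on the other side, at 19.4, 20.5 and 23.4 CPM in AngII and 21.6, 25.9 and 40.7 in sham (-0.45 ± 0.17, edgeR adjusted p = 0.0722). All sham libraries but number 12 lay above the 6 AngII libraries. In DESeq2's Wald test on the same genes, Ndufa13, Ndufa2, Ndufb6 and Ndufc2 were called as well, the first 2 higher and the last 2 lower, which made 6 calls in all, where 27.5% of all genes were called.

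The 8 assembly factors had a median of -0.25, with 6 below 0 and none called. Ndufaf5, which hydroxylates an arginine of Ndufs7, had 1.30, 1.94 and 2.09 CPM as lowest, median and highest in AngII and 1.89, 2.45 and 4.15 in sham (log2 fold change -0.52 ± 0.21, edgeR adjusted p = 0.0973). Ndufaf7, a mitochondrial arginine methyltransferase, had 1.13, 2.06 and 2.78 CPM in AngII and 2.45, 2.90 and 4.41 in sham (-0.65 ± 0.28, edgeR adjusted p = 0.115). Ndufaf2, an assembly factor related in sequence to Ndufa12, had -0.45 ± 0.20 (edgeR adjusted p = 0.126), and Ndufaf1, which works on the membrane arm, -0.06 ± 0.22. Ndufa4, now counted as a subunit of cytochrome c oxidase, lay at 29.3 to 44.9 CPM in AngII and 36.2 to 54.7 in sham (-0.31 ± 0.17, edgeR adjusted p = 0.215). Its paralog Ndufa4l2, known as a hypoxia-induced gene, lay at 2.59 to 4.48 CPM in AngII and 1.77 to 5.65 in sham (-0.11 ± 0.28, edgeR adjusted p = 0.819). On the log2(TPM + 1) scale Ndufaf7 lay at -0.05, and the other 5 genes named in this paragraph lay above 0, as did the median of all genes. Of these 5, Ndufaf2 (0.10) and Ndufaf5 (0.063) lay below that median and the others above it.

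**Figure D3:**
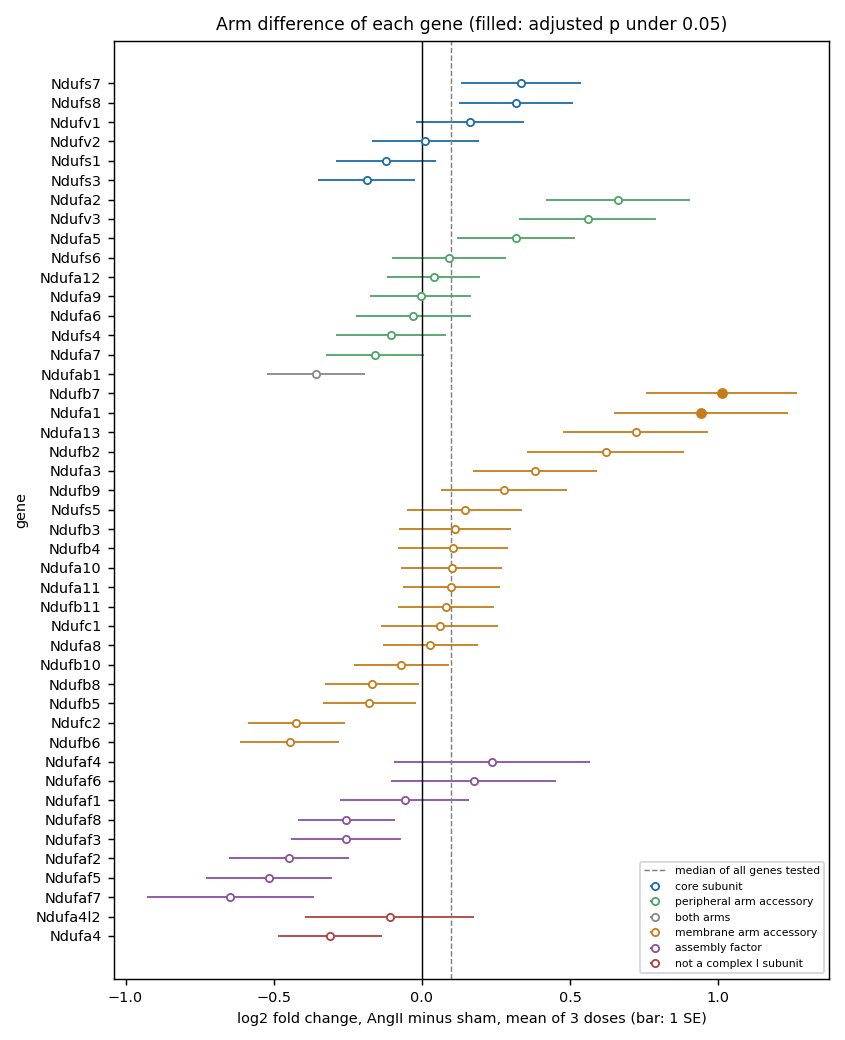
Log2 fold change of 45 of the genes, AngII minus sham averaged over 3 doses, with 1 SE; colours give the role, filled points an edgeR adjusted p under 0.05, the dashed line the median of all genes tested (0.10). Only Ndufb7 (1.01) and Ndufa1 (0.94) are filled, and 6 of 8 assembly factors lie below 0. Of these, Ndufaf7 alone does so on the authors' TPM, where the median of all genes lies above 0.

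In the averaged comparison of AngII with sham, edgeR called 13.4% of all genes tested higher and 7.53% lower. Of these 16723 genes, 6137 had an unadjusted p under 0.05 and 7693 lay below 0. Related genes gave the following counts in the same comparison. All 7 complex I genes of the mitochondrial genome lay below 0 with a median of -0.54, and none was called (1 at an unadjusted p under 0.05); mt-Nd6 had the largest difference (5575 ± 2273 CPM in AngII against 9845 ± 2651 in sham, log2 fold change -0.81 ± 0.33, edgeR adjusted p = 0.101). For each 100 reads of these 7 genes, the 46 nuclear genes had 0.477 to 2.06 reads in AngII and 0.414 to 0.680 in sham libraries, and AngII numbers 1, 3 and 6 alone lay above 1. Of 14 tested assembly genes without an Nduf name, 2 rose and 4 fell. Dmac2 rose from 7.04 ± 2.30 CPM in sham to 15.5 ± 4.37 in AngII (log2 fold change 1.19 ± 0.22, edgeR adjusted p = 0.00423) and Ecsit from 10.98 ± 3.26 to 16.4 ± 3.22 (0.62 ± 0.19, edgeR adjusted p = 0.0335). Dmac1 (-0.64 ± 0.17), Nubpl, which delivers iron-sulfur clusters (-1.01 ± 0.31), Tmem126a (-0.78 ± 0.24) and Tmem70 (-0.62 ± 0.20) fell. Of 43 nuclear genes of complexes II to V, 2 rose and 1 fell, with a median of -0.08, and whether these differ from complex I genes was not tested.

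The promoter sequences of the called pair are shown beside those of 4 members whose promoters hold the motif of NRF1, a transcription factor known for its role in nuclear genes of mitochondria. RefSeq promoter windows (GRCm38.p6, 250 bases before to 50 after the start) were found for 40 of the 46 genes. The NRF1 motif (GCGCA, then any base, then GCGC), searched on both strands as were the others, occurred in any window of 9 of the 40 genes (22.5%). It did so in 5.19% of all 27025 genes with a window. These include genes not tested here, and no set matched for level or GC content was compared. YY1's AAGATGGCG occurred in 6 (15%, against 1.64% of all), the ETS motif CCGGAAG in 6 (15%, against 9.93%), the SP motif GGGCGG in 21 (52.5%, against 38.2%) and the ERR motif AAGGTCA in 3 (7.5%, against 5.38%). The median arm difference was 0.10 for the 9 genes with the NRF1 motif and -0.00 for the 31 without it, in log2 fold change. Shown are the 120 bases just upstream of the RefSeq or GENCODE gene start, whichever lies farther upstream, of Ndufb7 (chr8:83566551-83566670, plus strand) and Ndufa1 (chrX:37191239-37191358, minus strand), neither with the NRF1 motif in its window, and of Ndufa11 (chr17:56717642-56717761, plus), Ndufb4 (chr16:37654454-37654573, minus), Ndufs5 (chr4:123718203-123718322, minus) and Ndufaf4 (chr4:24897963-24898082, plus), chosen because they hold it there; each is written 5′ to 3′ on the strand of its gene, with the NRF1 match in capitals.
Ndufb7: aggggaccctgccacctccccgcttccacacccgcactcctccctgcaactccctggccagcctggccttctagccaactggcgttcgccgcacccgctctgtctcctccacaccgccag
Ndufa1: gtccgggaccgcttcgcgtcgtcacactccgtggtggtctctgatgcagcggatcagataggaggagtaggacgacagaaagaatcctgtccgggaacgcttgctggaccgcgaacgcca
Ndufa11: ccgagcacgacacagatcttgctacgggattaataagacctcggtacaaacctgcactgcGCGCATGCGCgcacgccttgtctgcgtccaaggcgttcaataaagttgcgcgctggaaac
Ndufb4: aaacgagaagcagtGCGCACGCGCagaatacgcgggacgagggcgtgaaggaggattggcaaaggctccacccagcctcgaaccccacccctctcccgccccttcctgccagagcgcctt
Ndufs5: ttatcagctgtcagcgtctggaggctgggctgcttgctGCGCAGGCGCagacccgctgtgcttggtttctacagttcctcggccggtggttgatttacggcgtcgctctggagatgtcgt
Ndufaf4: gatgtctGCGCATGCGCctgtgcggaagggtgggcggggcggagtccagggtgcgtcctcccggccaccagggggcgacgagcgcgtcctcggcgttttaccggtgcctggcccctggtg
The spacing differs between the 4 matches, which end 51 bases before that start in Ndufa11, 73 in Ndufs5, 97 in Ndufb4 and 104 in Ndufaf4. A match describes the letters only.

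Taken dose by dose, the difference between AngII and sham hearts lay mostly below 0 at vehicle and mostly above 0 at 50 mg, and edgeR called none of the 46 genes at any dose. These comparisons share no libraries with each other. At vehicle, 37 of the 46 lay below 0 (47% of all genes), with a median of -0.33 and 0.0598% of all genes called. On the authors' TPM 35 lay above 0. The share of all genes above 0 on that scale is not given for vehicle, and in the averaged comparison their median was itself above 0. In edgeR at an unadjusted p under 0.05 there were 3 of the 46 (16.5% of all genes), and DESeq2 called 0 of the 46 (4.6% of all genes). The libraries of the 2 groups did not overlap for 29 of the 46, of which 27 were lower in AngII (24.3% of all genes) and 2 higher (29.3%). The lowest p belonged to Ndufaf5 (1.30 and 2.09 CPM in AngII against 4.15 and 2.99 in sham, log2 fold change -1.08 ± 0.37, edgeR adjusted p = 0.208), Ndufb6 (19.4 and 20.6 against 40.7 and 26.8 CPM, -0.76 ± 0.29, edgeR adjusted p = 0.241) and Ndufab1 (20.4 and 25.2 against 44.3 and 32.6 CPM, -0.75 ± 0.29, edgeR adjusted p = 0.241). Sham vehicle number 7 was the higher of its pair in each, and without it the median over the 46 was -0.14.

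At 5 mg, 28 of the 46 lay above 0 (54.4% of all genes), with a median of 0.08, and no gene in the whole table was called (0%; at an unadjusted p under 0.05, 2 of the 46 and 12% of all genes). DESeq2 called 0 of the 46 and 1.79% of all genes. Ndufb7 (138 and 53.8 against 56.3 and 40.7 CPM, log2 fold change 0.99 ± 0.44, edgeR adjusted p = 0.402), Ndufv3 (67.2 and 27.9 against 26.8 and 24.6 CPM, 0.89 ± 0.40, edgeR adjusted p = 0.407) and Ndufa2 (78.0 and 41.3 against 36.5 and 32.7 CPM, 0.79 ± 0.42, edgeR adjusted p = 0.468) had the lowest p. In all 3, AngII number 3 stood far above its partner number 4. Without number 4, Ndufb7 (log2 fold change 1.52) and Ndufv3 (1.39) were called, along with 6.52% of all genes. Without number 3, Ndufb7 stood at 0.16, Ndufv3 at 0.13 and Ndufa2 at 0.26, and the median over the 46 was -0.05 (0.33 without sham number 9 and -0.03 without sham number 10).

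At 50 mg, 35 of the 46 lay above 0 (51.3% of all genes), with a median of 0.29, while 5.42% of all genes were called. At an unadjusted p under 0.05 there were 7 of the 46 (24% of all genes), and DESeq2 called 2, Ndufb7 and Ndufa13 (14.2% of all genes). All 7 core subunits and 8 of 9 accessory subunits of the peripheral arm lay above 0. AngII lay wholly above sham for 19 of the 46 (30.6% of all genes) and wholly below for 8 (28.4%). Ndufb7 had 67.1 and 135 CPM in AngII and 33.9 and 31.04 in sham (log2 fold change 1.63 ± 0.45, edgeR adjusted p = 0.0513), Ndufa13 52.6 and 118 against 39.0 and 37.3 (1.16 ± 0.43, edgeR adjusted p = 0.125) and Ndufb9 48.0 and 85.7 against 38.6 and 31.9 (0.92 ± 0.37, edgeR adjusted p = 0.151). In each of these 3, number 6 held the higher AngII value, and both sham libraries lay below both AngII libraries. The exons of Ndufb9 overlap Gm49356 on the same strand, so its count is uncertain. Ndufb7 was also called at this dose in 4 other settings (no filter on low counts, at least 1 CPM in 6 libraries, only the 2 groups compared, mitochondrial and ribosomal genes left out), in which 8.97%, 11.8%, 12.5% and 5.73% of all genes were called. Without number 6, Ndufb7 stood at 1.08 (edgeR adjusted p = 0.334), Ndufa13 at 0.50 and Ndufb9 at 0.48, and the median over the 46 was 0.18; without number 5 these were 2.06 (edgeR adjusted p = 0.0346), 1.64, 1.29 and 0.51.

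Gastrodin against vehicle was compared within each arm, which asks how the compound moved the genes with and without the model. EdgeR called none of the 46 at either dose in either arm. In AngII hearts, 41 of the 46 lay above 0 at 5 mg (51.5% of all genes), with a median of 0.21, and 34 at 50 mg (50.3% of all genes), with a median of 0.18; of all genes 0.00598% and 0.012% were called. None of the 46 had an unadjusted p under 0.05 at either dose (1.74% and 1.88% of all genes), and DESeq2 called none (0.0718% and 0.0861%). These comparisons share the AngII vehicle libraries, so they are not independent. At 5 mg the lowest p belonged to Ndufa11, a membrane-spanning accessory subunit (31.4 and 23.0 CPM against 19.7 and 18.2, log2 fold change 0.52 ± 0.29), Ndufs4, a peripheral-arm subunit (21.0 and 13.3 against 10.2 and 12.7 CPM, 0.58 ± 0.32), and Ndufaf3, an assembly factor of the ubiquinone module (3.96 and 3.996 against 2.83 and 2.62 CPM, 0.55 ± 0.32), all with an edgeR adjusted p of 1. At 50 mg they were Ndufs4 (12.6 and 19.2 CPM, 0.47 ± 0.32), Ndufb9 (48.0 and 85.7 against 58.9 and 39.97 CPM, 0.44 ± 0.37) and Ndufaf4, which works with Ndufaf3 (3.79 and 11.8 against 2.82 and 7.20 CPM, 0.64 ± 0.57), again with an edgeR adjusted p of 1. The direction at 50 mg rested on number 6: without it the median was -0.10 and 15 of the 46 lay above 0. At 5 mg the median without number 3 was 0.02, with 25 above 0.

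In sham hearts the genes lay on the other side: 39 of the 46 were below 0 at 5 mg (49.7% of all genes), with a median of -0.22, and 41 at 50 mg (47.8% of all genes), with a median of -0.47, while 0.0179% and 0.149% of all genes were called. Both doses were set against the same vehicle libraries. Tissue markers also differed along these groups. The heart muscle markers summed to 7659 and 6116 CPM in vehicle, 6383 and 5209 at 5 mg, and 4792 and 4099 at 50 mg. The fibroblast markers summed to 63.7 and 119 CPM in vehicle, 77.7 and 109 at 5 mg, and 229 and 220 at 50 mg. Their part in the gastrodin comparisons and in the interactions below was not tested. At 5 mg the lowest p belonged to Ndufv2 (43.8 and 34.5 CPM against 65.2 and 45.6, log2 fold change -0.50 ± 0.31), Ndufab1 (33.5 and 23.3 against 44.3 and 32.6 CPM, -0.44 ± 0.29) and Ndufaf5 (2.28 and 2.61 against 4.15 and 2.99 CPM, -0.54 ± 0.37), with an edgeR adjusted p of 1. At this dose 0 of the 46 had an unadjusted p under 0.05 (4.12% of all genes), and DESeq2 called 0 (0.207%). At 50 mg, 10 of the 46 had an unadjusted p under 0.05 (9.22% of all genes). Ndufa12, an accessory subunit at the foot of the NADH module, had 48.2 and 41.3 CPM in vehicle and 21.2 and 20.9 at 50 mg, so both libraries at 50 mg lay far below both vehicle libraries (log2 fold change -1.09 ± 0.28, edgeR adjusted p = 0.236). It was the only 1 of the 46 called in DESeq2's Wald test (1.63% of all genes), and 30.0% of its stretches of 31 bases also occur in other genes. Ndufa7, a peripheral-arm subunit, had 30.2 and 21.8 CPM in vehicle and 17.4 and 13.02 at 50 mg (-0.78 ± 0.29, edgeR adjusted p = 0.421). Its count is uncertain too, with 10.6% of its stretches of 31 bases shared with other genes. The 50 mg libraries lay wholly below the vehicle libraries for 33 of the 46 (20.7% of all genes) and wholly above for 1, Ndufa4l2 (21.9%). The median was -0.31 without sham vehicle number 7, -0.42 without number 12, which held the ribosomal RNA, and -0.03 at 5 mg without number 7.

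The test of the difference between the arms in the gastrodin response (the interaction) had no call among the 46 in edgeR at 5 mg, where 0.00598% of all genes were called, or at 50 mg, where 0.0299% were. At an unadjusted p under 0.05 there were 0 and 4 of the 46 (3.07% and 6.93% of all genes), and DESeq2 called 0 at both doses (0.0947% and 0.72%). The direction was shared: 43 of the 46 lay above 0 at 5 mg (52.2% of all genes), with a median of 0.45, and 44 at 50 mg (48.8% of all genes), with a median of 0.66, where the medians of all genes were 0.03 and -0.03. At 5 mg all 36 core and accessory subunits lay above 0, and at 50 mg 35 of 36. Ndufa11 (0.76 ± 0.40), Ndufa6 (0.77 ± 0.47) and Ndufv3 (0.91 ± 0.57) had the lowest p at 5 mg, each with an edgeR adjusted p of 1.00. Ndufa12 (0.96 ± 0.39, edgeR adjusted p = 0.676) and Ndufb9 (1.23 ± 0.52, edgeR adjusted p = 0.699) were among those with the lowest p at 50 mg. The 43 genes of complexes II to V had medians of 0.35 and 0.63, with 40 and 43 above 0. With 1 library left out in turn, the median over the 46 lay between 0.25 and 0.64 at 5 mg and between 0.42 and 0.88 at 50 mg.

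**Figure D4:**
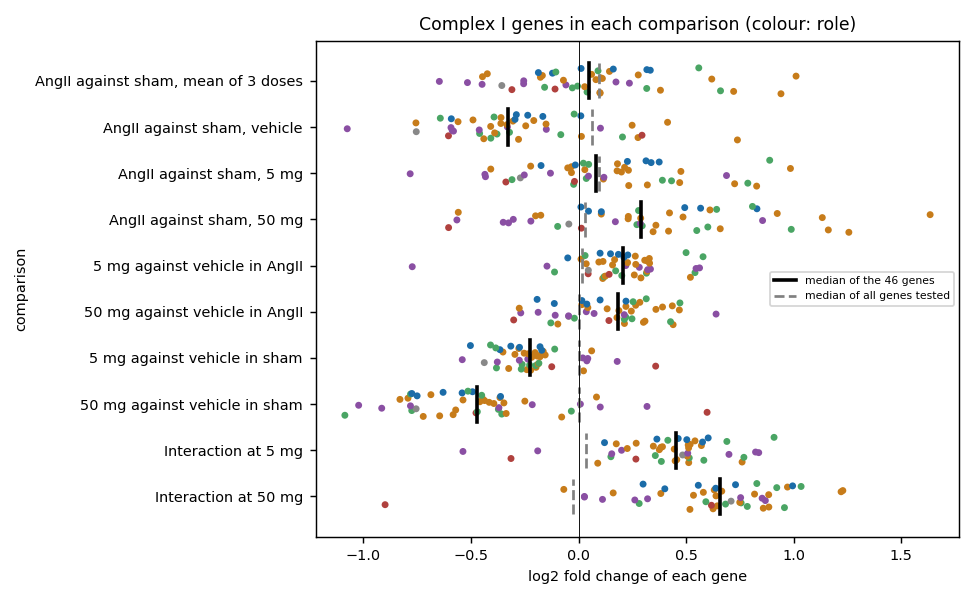
Log2 fold change of 45 of the genes in each of the 10 comparisons (points, coloured by role as in the plot of arm differences), with the median of all 46 (black) and that of all genes tested (dashed). The black lines lie at -0.33 and 0.29 for AngII against sham at vehicle and at 50 mg, at -0.22 and -0.47 for gastrodin in sham hearts, and at 0.45 and 0.66 for the interactions; neither the points nor the comparisons are independent.

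Most of the 46 genes also lay on the same side in 5 of the 6 pairs of libraries within a group. Sham vehicle number 7 was above number 8 in 42 of the 46 (46.5% of all genes) and sham 5 mg number 9 above number 10 in 43 (42.3%). AngII number 3 was above number 4 in 34 (51.9%), AngII number 6 above number 5 in 36 (50.8%) and sham number 11 above number 12 in 35 (47.3%), while AngII number 1 was above number 2 in 26 (49.5%). The median gap was 0.33 for the first of these pairs, 0.31 for the second and 0.38 between numbers 6 and 5, in log2 units, which is of the size of the group differences above. In the AngII pairs the library with the larger non-mitochondrial share was the higher one in all 3 pairs for 22 of the 46 (21.7% of all genes) and the lower one for 5 (20.5%). In the sham pairs (numbers 8, 10 and 12, at 10.4, 8.15 and 9.10% against 7.55, 6.34 and 7.00%) it was the higher one for 1 gene, Ndufa4l2 (13.5%), and the lower one for 30 (11.1%). The direction that goes with this share was thus opposite in the 2 arms, and its part in the results was not tested beyond the covariate fit. The summed heart muscle markers were higher in numbers 1, 3, 6, 7, 9 and 11 than in their partners. In AngII the sums were 7948 against 5892, 8867 against 5914 and 9663 against 8354 CPM. In sham they were 7659 against 6116, 6383 against 5209 and 4792 against 4099 CPM. Most of the 46 genes were higher in these same libraries, and whether the genes go with these markers was not tested.

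**Figure D5:**
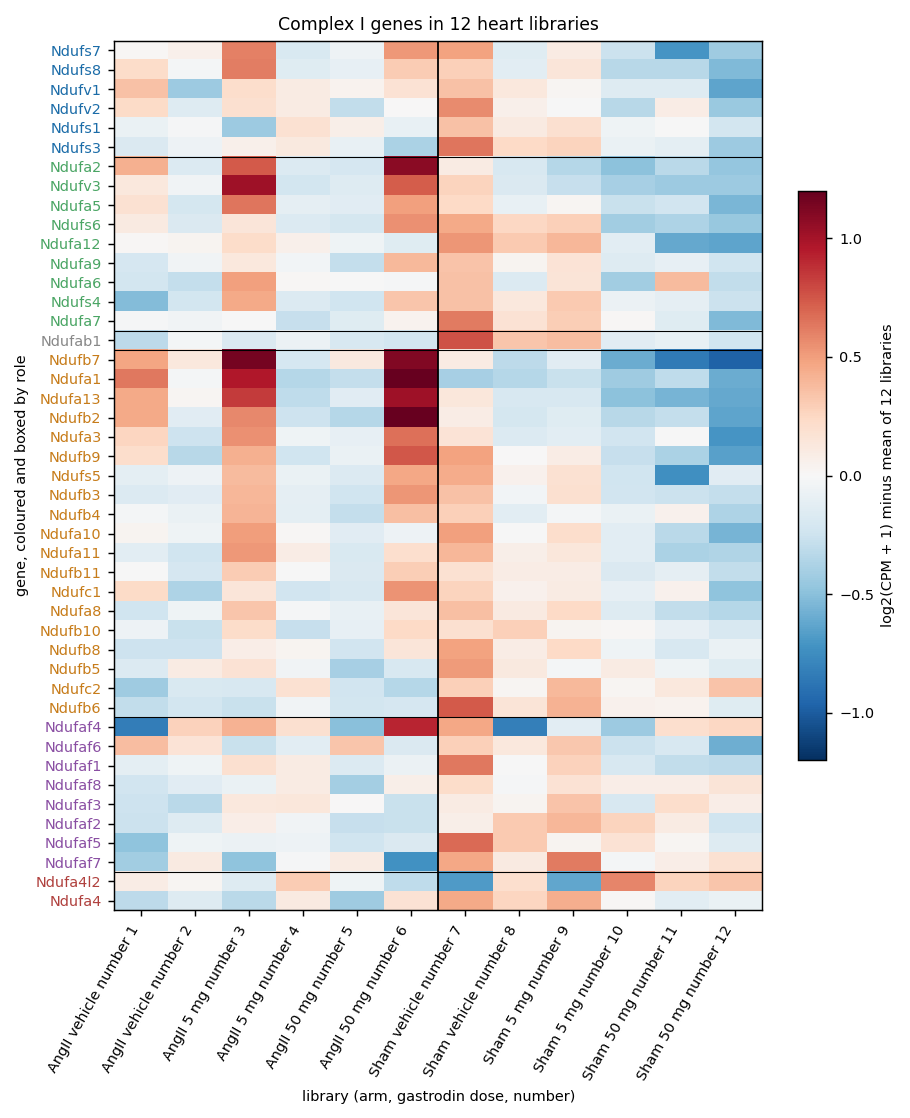
Each of 45 genes (row, coloured and boxed by role) in each library (column): log2(CPM + 1) minus the gene's mean over 12 libraries. Sham vehicle number 7 is above the mean for most genes (median deviation 0.35) and sham 50 mg number 12 below it (-0.36), while AngII numbers 3 and 6 (0.22 and 0.19) are above it most clearly for Ndufb7, Ndufa1, Ndufa13 and Ndufa2.

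Across the 46 genes, the AngII minus sham log2 fold change had a Pearson r of 0.50 and a Spearman rho of 0.52 with the log2 of the mean authors' TPM. The values were 0.31 and 0.30 with the GC content of the transcript, and -0.15 and -0.11 with its log2 length. These describe 46 genes from the same 12 libraries, which are not independent replicates, and no test was made. The exons of 3 genes (Ndufb2, Ndufb8 and Ndufb9) overlap a gene on the same strand, those of a further 16 overlap only a gene on the opposite strand, and 10 share at least 10% of their stretches of 31 bases with other genes. Ndufb7 and Ndufa1 are in none of these sets, with 1.86 and 2.06% shared. Only the longest protein-coding transcript of each gene was searched for shared stretches. For Ndufb7 that transcript has 623 bases, while its exons cover 4522, so the rest was not searched.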

How the data were processed

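RNA of 12 heart libraries was prepared with the TruSeq RNA kit and sequenced on a NovaSeq instrument, per the labels' protocols. HISAT2 2.2.1, StringTie 2.1.3 and the build GRCm38.p6 are named in the submitters' processing notes. None of the sources used here gives the counting program, its strand setting or its treatment of multi-mapping reads, so genes that overlap or have copies are uncertain. The deposited matrix holds raw counts per gene from the authors, without normalisation, for 27504 genes, of which 27453 had a symbol. The authors also deposited TPM for 14271 genes, per the file headers. Gene positions and biotypes come from GENCODE M21 on GRCm38, and promoter windows from RefSeq on GRCm38.p6.

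Counts were tested in R 4.3.3 with edgeR 4.0.16: filterByExpr by group (16723 genes kept), TMM scaling, 1 mean per group over 12 libraries (6 residual degrees of freedom, prior 6.93, biological coefficient of variation 0.476), quasi-likelihood F-test, 2-sided, Benjamini-Hochberg over all genes, threshold 0.05. With 2 libraries a group, all groups share an estimate of the spread. The standard error is the log2 fold change over the root of F. CPM use TMM-scaled library sizes. The median standard error of the 46 genes was 0.19 (log2) for the averaged comparison. Alternatives were DESeq2 1.42.0 (size factors and Wald test), other filters, only the groups compared, genes left out, a covariate, limma 3.58.1 on log2(TPM + 1) and log2(TPM + 0.1), and libraries left out. The code was tested on simulated data.

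The 46 genes, the gene and marker lists, the tests and the alternatives were chosen with earlier results of these data known, so none is independent of them. Genes are named by rule: in the averaged comparison the called ones (at most 8 a direction); elsewhere those called or, with fewer than 5, the 3 with the smallest p; always the 7 core subunits, Ndufa4, Ndufa4l2, Ndufaf1 and the 3 highest and 3 lowest by TPM. Ndufc2, Ndufb2, Ndufb4, Ndufb8, Ndufs5 and Ndufaf8 fall outside it and were chosen after their values were seen. For 1 gene within the rule no values are given; it stays in the counts and medians.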

Additional observations from a re-analysis of the deposited data

Results flagged for a closer look

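In each arm of 6 libraries, pooled over dose, the CPM of the genes named by rule were searched for a highest or lowest library that stood apart from the other 5 by more than Dixon's 95% critical value (58 gene and arm pairs). Chance flags about 1 in 20 such groups, so the 3 found are about what chance gives, and the arms pool 3 doses.

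Ndufa6, a peripheral-arm subunit, stood at 37.0 CPM in AngII 5 mg number 3, with a gap of 0.679 of the range, and Ndufb6, a membrane-arm subunit, at 23.4 CPM in AngII 5 mg number 4 (0.666), each the highest of its arm. Ndufv3 stood at 39.4 CPM in sham vehicle number 7, the highest sham library (0.682).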

How the results depend on the processing

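For AngII against sham over all doses, the number of complex I genes called was 2 (in parentheses, the share of all genes called: 20.9%). It was 6 with DESeq2's Wald test (27.5%) and 6 without a filter on low counts (17.6%), 0 with the non-mitochondrial share as a covariate (2.82%), 1 on log2(TPM + 1) (8.78%), 5 when numbers 4 and 12 were both left out (24.3%), and 0 to 8 with 1 library left out (9.74 to 28.3%; 0 without sham vehicle number 8, with 11.9%, and 8 without AngII 5 mg number 4, with 28.3%). At 5 mg it was 0, but 2 without numbers 4 and 12 (5.05%) and 0 to 2 with 1 library left out (0 to 6.52%). At 50 mg it was 0, but 2 with DESeq2 (14.2%), 5 without a filter (8.97%), 1 with at least 1 CPM in 6 libraries (11.8%), 1 with only the groups compared (12.5%), 1 without mitochondrial and ribosomal genes (5.73%), and 0 to 3 with 1 library left out (0.276 to 11.3%). DESeq2 called 1 gene for 50 mg against vehicle in sham (1.63%). In the averaged comparison, Ndufa13 was also called in 2 settings not listed above. These were at least 1 CPM in 6 libraries (edgeR adjusted p = 0.0414, with 34% of all genes called) and log2(TPM + 0.1) (limma-trend adjusted p = 0.0474, with 16.9%). The cause of these differences was not tested. Every other comparison kept 0 calls in every setting run. Of 1224 alternative values of single genes, 1123 kept their direction and side of the threshold, 37 gained and 13 lost a call, and 51 changed sign with neither value past the threshold.

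In the averaged comparison, on log2(TPM + 1) and log2(TPM + 0.1), where the medians of all genes were 0.22 and 0.51, the sign turned for Ndufa4 (0.28, 0.29), Ndufa4l2 (0.51, 0.59), Ndufa6 (0.59, 0.60), Ndufa7 (0.45, 0.46), Ndufab1 (0.23, 0.26), Ndufaf1 (0.37, 0.54), Ndufaf2 (0.10, 0.16), Ndufaf3 (0.27, 0.35), Ndufaf5 (0.063, 0.082), Ndufb6 (0.17, 0.17), Ndufs1 (0.45, 0.47), Ndufs3 (0.42, 0.43) and Ndufs4 (0.44, 0.48). With the covariate it turned for Ndufa11 (-0.070), Ndufb9 (-0.065), Ndufs1 (0.090) and Ndufv2 (-0.0391), and without numbers 4 and 12 for Ndufv2 (-0.050). With 1 library left out, values ran from -0.13 to 0.11 for Ndufa6, -0.065 to 0.12 for Ndufv2, -0.30 to 0.23 for Ndufa4l2, -0.17 to 0.10 for Ndufaf1, -0.093 to 0.57 for Ndufaf4 and -0.037 to 0.14 for Ndufa12. For 50 mg against vehicle in AngII they ran from -0.028 to 0.80 for Ndufb9 and -0.38 to 1.47 for Ndufaf4. No paired analysis was possible because the groups share no replicate numbers (1 to 12 over the series). Where a library is left out, its partner is assumed to vary like the other groups. The non-mitochondrial counts, 6.34 to 20.3% of each library, set the depth behind these values.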
